A study of Saccharomyces cerevisiae with 4 samples.

Results

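The messenger RNA of 1 yeast genome was followed from its own haploid cells into a diploid nucleus shared with a second genome. RM11-1a is a haploid strain from a vineyard isolate of Saccharomyces cerevisiae, and BY4741 is a laboratory strain. The authors counted reads that cover single-base differences (SNPs) between the strains, which gives separate counts for the RM copy and the BY copy of each gene. The RM counts alone were compared here, in 4 RM columns of 4 libraries. All 4442 gene pairs have an RM copy, so all 4442 were members, and 4433 of them had at least 1 RM read. Of the RM copies, 351 have names that start with YML or YMR, which places them on chromosome XIII, and these were treated apart from the other 4091.

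The hybrid was an a/alpha diploid labelled BY4741xRM11-1alpha, grown from 1 strain named WL201. The co-culture held haploid RM11-1a cells mixed with haploid BY4741 cells, all labelled as of MAT-a type. Each group had 2 libraries, replicates 1 and 2. By their labels the cultures are technical replicates, and p-values therefore measure the spread between technical replicates of 1 hybrid and of 1 mixture. The named RM strain also differs between the groups: the hybrid descends from RM11-1alpha, while RM11-1a was co-cultured. A change of an RM copy can therefore belong to the shared nucleus, to ploidy, to mating type or to the RM parent, and these cannot be told apart. BY4741 is known to lack HIS3, LEU2, MET17 and URA3. The growth medium is not given in the sources used here.

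The RM columns summed to 1415250 and 2109435 reads in hybrid replicates 1 and 2, and to 1358571 and 1587185 in co-culture replicates 1 and 2. RM reads made up 50.38% to 50.49% of all reads in the 4 libraries. The median RM copy had 103 to 164 reads in a library. Levels are given as CPM, RM reads per 1000000 reads of the RM column of each library, and a count of 0 allows up to 1.42 to 2.21 CPM (3 reads of the column, counting error only). Each column adds up to the same total on this scale, so an overall rise or fall of RM messenger RNA would not be seen. In bulk RNA, fewer cells that express a gene and less RNA per cell cannot be told apart. Changes are log2 ratios of hybrid over co-culture, n = 2 libraries per group. The ± value is an SE derived from the test, the absolute log2 change over the square root of its F statistic. It can understate the error where a group has few reads. Adjusted p-values (Benjamini-Hochberg, threshold 0.05) are those of the quasi-likelihood test of edgeR.

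In a hybrid nucleus both copies of a gene meet the same regulatory proteins, whereas in separate haploid cells each copy meets only the proteins of its own strain. Mating type adds another layer. Haploid a cells and alpha cells express mating genes, and an a/alpha diploid turns them off with 2 repressors built from products of both mating type loci. The alpha2 protein with Mcm1 represses a-specific genes, and the a1-alpha2 pair represses haploid-specific genes. A further well-known difference between these strains is the release of daughter cells after division. Cell wall enzymes cut mother and daughter apart, and AMN1, whose alleles differ between BY and RM, is known from BY by RM crosses to affect their genes. Leu3 is the activator of leucine synthesis genes.

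Promoters of mating and leucine genes with large falls are shown first, because they hold the letters that these factors are known to read. Windows of 500 bases before the start codon were searched on both strands in the R64 reference of strain S288C (RefSeq), so the letters are those of the laboratory strain and not of the RM copy. The motif spellings were chosen with the values known, and a match is a description only. Capitals mark the motif, and each stretch is printed in the direction in which the motif reads.
The alpha2-Mcm1 core TGTNNNNNCCNNNNNNGG was present in 4 of 5 a-specific promoters and in 2.82% of all 4325 windows. The stretches are chrVI:82347-82394 (minus strand), chrXI:46473-46520 (minus strand), chrIX:322065-322112 (plus strand) and chrIV:1384929-1384976 (plus strand).
STE2: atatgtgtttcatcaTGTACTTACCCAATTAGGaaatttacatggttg
STE6: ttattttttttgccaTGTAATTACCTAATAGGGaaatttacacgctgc
BAR1: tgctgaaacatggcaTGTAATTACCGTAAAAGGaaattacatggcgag
MFA1: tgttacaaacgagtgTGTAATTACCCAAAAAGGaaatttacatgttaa
The spacing of the 3 fixed blocks was the same in these promoters by construction, and the letters between them differed.
The a1-alpha2 site ATGTNNNNNNNTACAT was found in 2 of 10 haploid-specific promoters and in 0.74% of all windows, at chrVII:584266-584311 (minus strand) and chrXII:675573-675618 (plus strand).
RME1: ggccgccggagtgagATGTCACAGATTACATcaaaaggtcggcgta
NEJ1: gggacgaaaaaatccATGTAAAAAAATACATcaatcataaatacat
The other haploid-specific promoters did not hold these exact letters in the window, from which nothing follows about the factor.
The Leu3 site CCGNNNNCGG was found in 7 of 12 leucine and branched-chain promoters and in 3.05% of all windows. Of these 7 genes, LEU1, OAC1, BAT1 and BAP2 fell in RM, while BAT2, ILV5 and, on chromosome XIII, ILV2 rose. The ILV2 change of 0.23 lay below the median of 0.51 over the RM copies of its chromosome. The site is shown for LEU1, BAT1 and OAC1, at chrVII:478845-478884 (minus strand), chrVIII:517370-517409 (plus strand) and chrXI:216845-216884 (plus strand).
LEU1: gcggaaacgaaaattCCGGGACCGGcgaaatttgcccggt
BAT1: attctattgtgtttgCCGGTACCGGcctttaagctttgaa
OAC1: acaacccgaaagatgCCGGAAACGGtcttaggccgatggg

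Outside chromosome XIII most RM copies had nearly the same level in the hybrid nucleus as in haploid RM cells. Of 3852 RM copies tested there, 391 (10.2%) were higher and 513 (13.3%) were lower in the hybrid, so 23.5% passed in either direction. The median log2 change was -0.01, and the middle 80% of copies lay between -0.48 and 0.36. The large changes were mostly falls. At least 2-fold, 23 copies were higher and 89 lower, and at least 4-fold, 4 were higher and 27 lower. The remaining 239 copies had too few reads to be tested. Hybrid and co-culture values did not overlap in 2266 of the 3852, so a lack of overlap in a single gene is common. It was also a condition for naming the genes of largest rise or fall, and is no further support for them. The balance of rises and falls depends on chromosome XIII, which took up more of the RM column in the hybrid. With that chromosome left out of the column totals the median moved to 0.04, and 529 copies were higher and 405 lower. DESeq2 called 132 higher and 235 lower, so counts over gene lists are given with those of DESeq2 where they differ by more than 1.5 times.

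**Figure D1:**
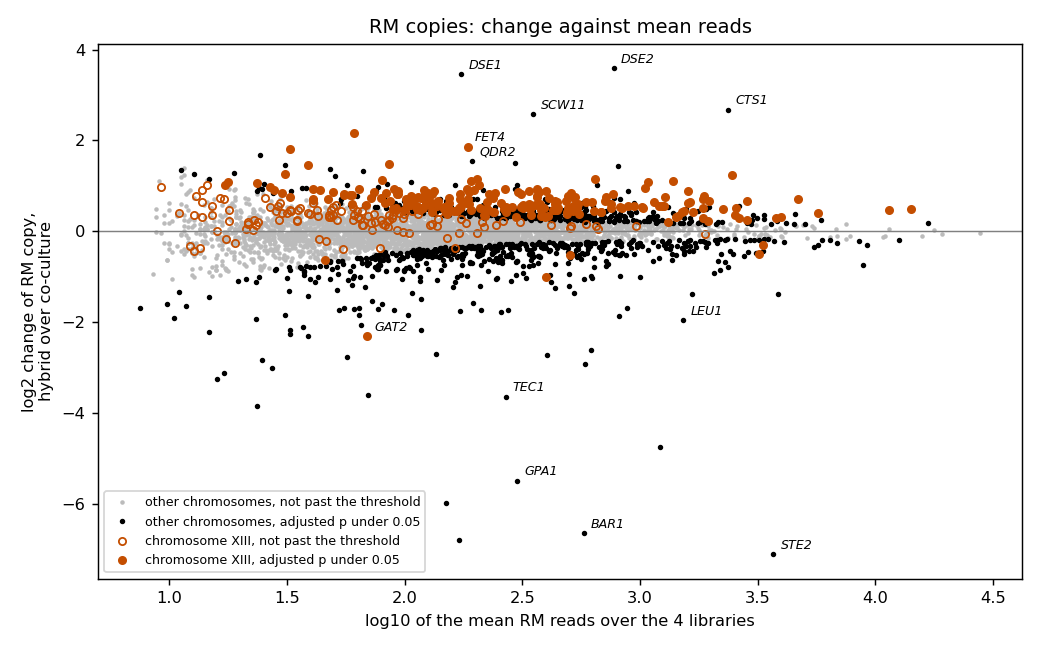
Log2 change of each tested RM copy, hybrid over co-culture (vertical axis), against the log10 mean of its RM reads over the 4 libraries (horizontal axis), without the copies that had 0 reads in the hybrid. Black points are copies of the other chromosomes and filled orange points copies of chromosome XIII with an adjusted p under 0.05; falls below -4 are mating genes, the 4 rises above 2 off chromosome XIII are DSE2, DSE1, CTS1 and SCW11, and the orange points sit above 0 at nearly all read depths.

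The RM copies of genes for mating showed large falls, while 13.3% of all tested RM copies off chromosome XIII fell. STE2 (YFL026W) encodes the receptor that a cells use to sense the pheromone of alpha cells. Its RM copy stood at 37.4 and 35.1 CPM in hybrid replicates 1 and 2, and at 5009 and 4943 in co-culture replicates 1 and 2. The hybrid libraries were both far below the co-culture libraries, and the log2 change was -7.11 ± 0.09 (adjusted p = 1.69e-27). STE6 (YKL209C), the exporter of the pheromone of a cells, went from 1552 and 1599.7 CPM in the co-culture to 62.9 and 55.5 in the hybrid (log2 change -4.75 ± 0.09). BAR1 (YIL015W), a secreted protease that degrades the pheromone of alpha cells, went from 726 and 813 to 10.6 and 5.69 CPM (log2 change -6.64 ± 0.15). MFA1 (YDR461W) encodes the pheromone of a cells itself, and its RM copy had 1.41 and 4.27 CPM in the hybrid, near the level that a count of 0 allows, against 189 and 210.4 in the co-culture. These groups were separated in each gene by more than the spread between replicates. ASG7, which tunes the pheromone signal after mating, fell least, at -2.31 ± 0.27. In all, 5 of 5 a-specific RM copies fell, with a median of -5.97, and the BY copies of the same genes had a median of -6.16.

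Genes shared by both types of haploid cell fell too. All 10 tested haploid-specific RM copies fell, with a median log2 change of -3.08 (BY copies -2.96). STE18 (YJR086W), the gamma subunit of the G protein behind the pheromone receptor, had 0 RM reads in both hybrid libraries and 66.2 and 82.5 CPM in the co-culture libraries. Against 3 reads over the hybrid group it was at least 88.1-fold lower. GPA1 (YHR005C), the alpha subunit of that G protein, stood at 8.48 and 9.01 CPM in the hybrid and 383 and 411 in the co-culture (log2 change -5.49 ± 0.15, adjusted p = 2.34e-20). FUS3 (YBL016W), the kinase of the mating pathway, had 3.53 and 0.95 CPM in the hybrid (5 and 2 reads) and 221 and 234 in the co-culture (log2 change -6.79 ± 0.24). FAR1 (YJL157C), which halts the cell cycle before mating, was less reduced, with 82.0 and 95.8 CPM against 698 and 670.4 (log2 change -2.93 ± 0.09). The hybrid values of all 4 lay below the co-culture values with a wide gap. RME1, a repressor of meiosis, changed by -3.84 ± 0.42, RDH54, a recombination gene, by -2.71 ± 0.10, SST2, which ends the G protein signal, by -2.61 ± 0.08, and NEJ1, a regulator of DNA end joining, by -2.07 ± 0.22. FUS1, needed for cell fusion, and AXL1, a protease that matures the pheromone of a cells, changed by -3.24 ± 0.49 and -1.83 ± 0.31.

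Further genes of the pheromone response were mixed. Of 13 tested off chromosome XIII, 9 fell and 1 rose, with a median of -1.48 (BY copies -1.45), and 3 of the 9 are also in the haploid-specific list. Among all RM copies tested there 13.3% fell and 10.2% rose. TEC1 (YBR083W), a transcription factor of filamentous growth and of the pheromone response, had 25.4 and 27.5 CPM in the hybrid and 318 and 345 in the co-culture (log2 change -3.64 ± 0.13, adjusted p = 4.85e-18). The RM copy of TEC1 fell further than the BY copy, which changed by -2.28 ± 0.15, and the difference of -1.35 ± 0.22 passed the test (adjusted p = 1.38e-07). PRM5 (YIL117C), a membrane protein gene that pheromone induces, stood at 6.36 and 7.58 CPM in the hybrid and 86.1 and 86.9 in the co-culture (log2 change -3.60 ± 0.24). KSS1, a second kinase of the pathway, fell in RM by more than in BY (-1.48 ± 0.15 against -0.47 ± 0.19; adjusted p of the difference = 5.67e-05, not past the threshold in DESeq2). PRM10 went opposite ways in the 2 copies, -0.86 ± 0.16 in RM and 0.91 ± 0.19 in BY (adjusted p of the difference = 5.80e-11). The member that rose was PRM1, which helps membranes fuse at mating, at 0.93 ± 0.32; its adjusted p was 0.296 in DESeq2, 0.214 without hybrid replicate 2, 0.123 without co-culture replicate 1 and 0.0869 without co-culture replicate 2. KAR4, a regulator of nuclear fusion, had too few RM reads for the test.

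Of 3 markers of alpha cells, 1 was near the floor in both groups. STE3, the receptor of alpha cells, had 2.83 and 1.42 CPM of RM reads in the hybrid and 0.74 and 1.89 in the co-culture, and was not tested. The other markers had more reads. SAG1, the agglutinin of alpha cells, did not pass the test (0.26 ± 0.35, adjusted p = 0.653), with 12.7 and 11.9 CPM in the hybrid and 11.0 and 9.45 in the co-culture. AFB1, which blocks the pheromone of a cells, went from 30.9 and 27.1 CPM in the co-culture to 4.95 and 3.32 in the hybrid, although it is an alpha-specific gene by name (log2 change -2.84 ± 0.36, adjusted p = 8.57e-07).

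Of 10 genes for entry to meiosis, which a/alpha diploids can begin when starved, 3 had too few RM reads for the test. Of 7 tested RM copies 1 fell, near the share of 13.3% over all RM copies off chromosome XIII. In edgeR or DESeq2 0 rose, also at an unadjusted p under 0.05. The member that fell was IME4, an RNA methyltransferase gene, at -1.77 ± 0.11. It overlaps the noncoding RNA gene YNCG0006C, and without a stated strand the reads of the pair cannot be told apart. IME1 (YJR094C), the inducer of meiosis, was 1 of these, with 8 and 17 reads in hybrid replicates 1 and 2 and 1 read in each co-culture library. Both hybrid libraries were above both co-culture libraries, and the ratio of hybrid over co-culture was 10.4 (exact 95% interval 2.60 to 91.0, counting error only). With no filter on reads the RM copy of IME1 rose (log2 change 3.24, adjusted p = 0.00333). Its BY copy changed by -1.14 ± 0.18, and the copies differed by 4.38 ± 0.73 (adjusted p = 1.38e-07). The difference between copies passed in 4 of 10 members, IME1, SPO11, SPO13 and DMC1, each with RM above BY. Among all gene pairs off chromosome XIII RM stood above BY in 13.0%.

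Of 16 tested genes of daughter cell separation, 10 RM copies rose and 4 fell, against 10.2% and 13.3% of all RM copies off chromosome XIII. In 4 of them, DSE2, DSE1, CTS1 and SCW11, the rises were the largest among RM copies tested off chromosome XIII. DSE2 (YHR143W), a glucanase-like gene expressed in daughter cells, went from 69.9 and 66.8 CPM in the co-culture to 820.4 and 822 in the hybrid (log2 change 3.59 ± 0.09, adjusted p = 8.49e-21). DSE1 (YER124C), a daughter cell wall gene, went from 13.2 and 19.5 to 179 and 186 CPM (log2 change 3.45 ± 0.17). CTS1 (YLR286C), the chitinase that opens the septum between mother and daughter, went from 399 and 350.3 to 2382 and 2391 CPM (log2 change 2.67 ± 0.07). The 2 hybrid libraries lay close together and far above both co-culture libraries in each of these 3 genes. A lack of overlap between groups was a condition for naming them. SCW11 (YGL028C), a cell wall glucanase, rose from 61.8 and 56.7 to 374 and 334 CPM (2.58 ± 0.11). DSE4, another glucanase, rose from 88.3 and 93.9 to 264 and 256 CPM (1.51 ± 0.10), and PRY3, a cell wall gene of daughter cells, from 256 and 263 to 702 and 700.2 CPM (1.43 ± 0.07).

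The BY copies of DSE2, DSE1, CTS1 and SCW11 fell, and the 2 copies of each had similar levels in the hybrid. DSE2 had 735 and 731 CPM of BY reads in the hybrid, close to its RM level there, but 1663 and 1591 CPM in the co-culture. The BY copies of DSE1 and CTS1 fell from 592 and 585 to 165 and 166 CPM and from 5975 and 5726 to 2018 and 1878 CPM. The RM change minus the BY change was 4.74 ± 0.09 for DSE2 (adjusted p = 2.02e-113), 5.28 ± 0.17 for DSE1 (adjusted p = 5.41e-74), 4.27 ± 0.05 for CTS1 and 3.38 ± 0.11 for SCW11. The BY copy of PRY3 did not pass the test (0.12 ± 0.07). Over the list the median was 0.41 in RM and -0.59 in BY. The difference between copies passed in 12 genes, in which the RM change stood above the BY change (RM above BY) each time, against 13.0% of all 3931 gene pairs tested off chromosome XIII with RM above BY and 10.9% with RM below.

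The 4 RM copies of that list that fell do not encode the separation enzymes. AMN1 (YBR158W), an antagonist of mitotic exit that keeps daughter cell genes down, went from 499 and 493 CPM in the co-culture to 226 and 252 in the hybrid. Both hybrid values were below both co-culture values, with a log2 change of -1.04 ± 0.08 (adjusted p = 1.55e-10). Its BY copy fell further, from 1057 and 1125 to 273 and 242 CPM, and the copies differed in change by 1.06 ± 0.09 (adjusted p = 6.40e-23). SWI5, a transcription factor of late mitosis, fell by 0.75 on the log2 scale, ASH1, a daughter cell repressor, by 0.43 and PST1, a cell wall protein gene, by 0.47.

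**Figure D2:**
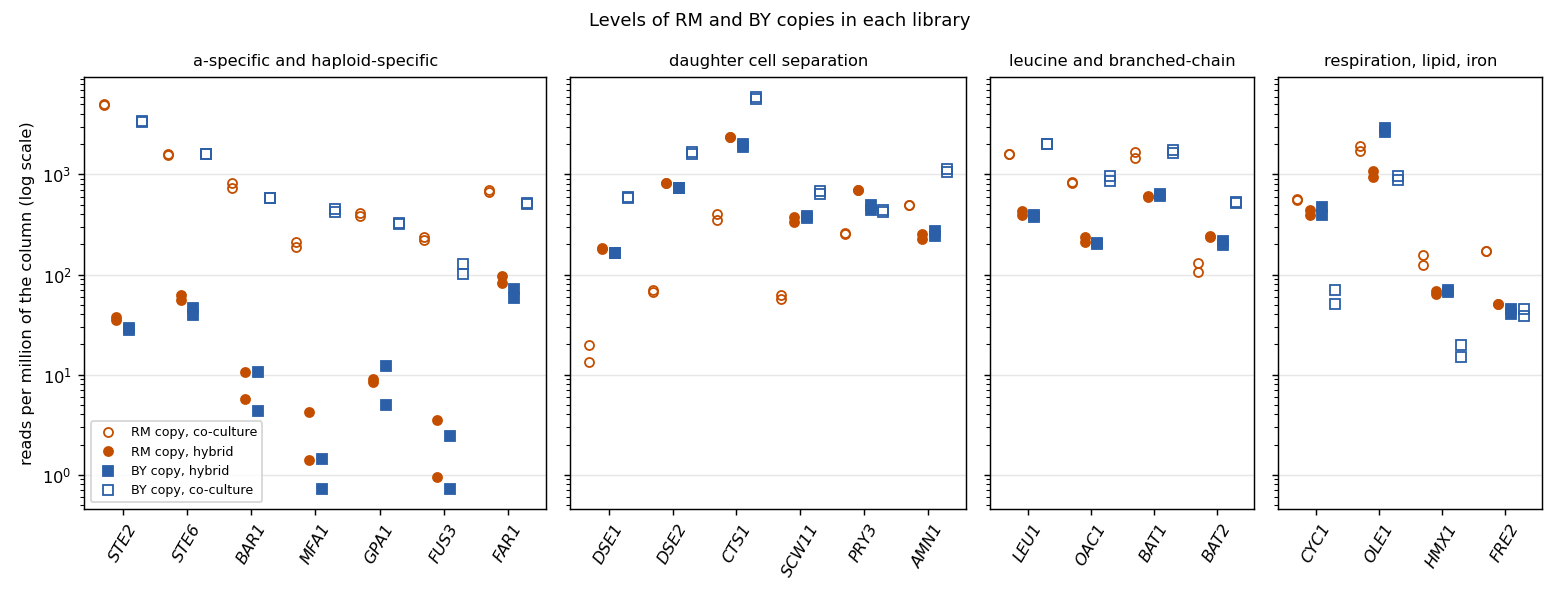
Levels of RM copies (orange circles) and BY copies (blue squares) in CPM of their own column on a log axis, with 1 point for each library; filled points are hybrid libraries and open points co-culture libraries, for 21 genes in 4 groups. Both copies of the mating genes dropped together in the hybrid, the open orange and open blue points of the daughter cell genes lie on opposite sides of the hybrid points for DSE1, DSE2, CTS1 and SCW11, and the RM copies of CYC1, OLE1 and HMX1 moved down while their BY copies moved up.

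Leucine synthesis genes were among the larger falls outside mating. LEU1 (YGL009C), isopropylmalate isomerase, went from 1591 and 1588 CPM in the co-culture to 430.3 and 396 in the hybrid (log2 change -1.95 ± 0.07, adjusted p = 3.74e-18). OAC1 (YKL120W), a mitochondrial carrier of the pathway, went from 836 and 829.8 to 213 and 239 CPM (-1.87 ± 0.08), and BAT1 (YHR208W), the mitochondrial transaminase of branched-chain amino acids, from 1667 and 1459.8 to 591 and 603 CPM (-1.39 ± 0.07). Each pair of hybrid values lay below each pair of co-culture values with no overlap. The BY copies of LEU1, OAC1 and BAT1 fell as well, with changes of -2.39 ± 0.06, -2.17 ± 0.07 and -1.44 ± 0.06. The cytosolic transaminase BAT2 (YJR148W) did the opposite in RM: it rose from 132 and 107 to 244 and 239 CPM (1.02 ± 0.10, adjusted p = 2.76e-08), while its BY copy changed by -1.35 ± 0.08. The copies of BAT2 differed by 2.37 ± 0.12 (adjusted p = 3.04e-47). Off chromosome XIII 10.2% of all tested RM copies rose and 13.3% fell. Of 11 genes of the leucine list, 4 RM copies rose and 4 fell (median 0.00, BY -0.40). DESeq2 called 1 of the rises and 3 of the falls, and 1 rose without hybrid replicate 2 and 2 without hybrid replicate 1 or co-culture replicate 1. The risers besides BAT2 were BAP3, an amino acid permease, ILV5 and ILV6, and BAP2, another permease, fell by 0.27, a call that ended in DESeq2 and without co-culture replicate 2 (adjusted p = 0.12).

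Other amino acid and nucleotide genes changed less. Their counts are to be read against the 10.2% of all RM copies off chromosome XIII that rose and the 13.3% that fell. Of 11 purine genes 5 RM copies fell and the others did not pass, with a median of -0.22 (BY -0.45), and DESeq2 called 3 of these falls. ADE1 (YAR015W) went from 235 and 229 to 146 and 149 CPM (-0.65 ± 0.09), and ADE13 changed by -0.50 ± 0.07. Both encode enzymes of adenine synthesis, and both fell further in BY (adjusted p of the difference 8.68e-05 and 1.01e-05), although DESeq2 called neither difference and that of ADE1 had an adjusted p of 0.0651 without hybrid replicate 2. On chromosome XIII ADE17, which carries out the last steps of the pathway, was 1 of only 6 RM copies that fell. Of 21 methionine and sulfur genes 4 rose and 3 fell, and DESeq2 called 3 rises and 0 falls (2 at an unadjusted p under 0.05), while 1 fell without co-culture replicate 2. Of 8 arginine genes 1 rose and 3 fell, against 0 and 1 in DESeq2, and 1 fell without hybrid replicate 2. Of 15 histidine, tryptophan and aromatic genes 1 rose, and DESeq2 called 0 (1 at an unadjusted p under 0.05). Of 7 pyrimidine genes 2 rose and 2 fell, against 1 and 0 in DESeq2 (2 and 1 at an unadjusted p under 0.05). Among these, MMP1, the S-methylmethionine permease, rose by 0.46 in RM and by 1.91 in BY, a difference of -1.45 ± 0.11 (adjusted p = 6.78e-27). CAR2, an enzyme of arginine breakdown, fell in RM (-0.66 ± 0.08) and rose in BY (0.60 ± 0.09).

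Respiration genes went down in RM copies and up in BY copies. Off chromosome XIII 13.3% of all tested RM copies fell and 10.2% rose. Of 29 oxidative phosphorylation genes tested off chromosome XIII, 18 RM copies fell and 2 rose, with a median of -0.32, while the BY copies had a median of 0.54. DESeq2 called 11 of the falls and 1 rise. COX13 (YGL191W) and COX12 (YLR038C), subunits of cytochrome c oxidase, went from 543 and 605 to 343 and 351 CPM (-0.73 ± 0.08) and from 248 and 255 to 136 and 159.8 CPM (-0.75 ± 0.10). QCR7 (YDR529C), a subunit of the cytochrome bc1 complex, went from 646 and 647 to 463 and 439 CPM (-0.52 ± 0.07). The groups did not overlap in these genes, but the falls were well under 2-fold. CYC1 (YJR048W), the main cytochrome c gene, fell by 0.42 on the log2 scale in RM (adjusted p = 1.33e-04), from 552 and 569 to 390.0 and 445 CPM. Its BY copy rose from 50.2 and 70.7 to 389.6 and 468 CPM, which brought the copies together in the hybrid, and the difference in change was -3.24 ± 0.11 (adjusted p = 5.93e-67).

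The difference between copies passed in 26 of the 29 respiration genes, with RM below BY each time. Among all gene pairs tested off chromosome XIII RM stood below BY in 10.9%. RIP1, the Rieske protein gene of the bc1 complex, changed by -0.32 ± 0.07 in RM and 2.04 ± 0.08 in BY, and CYT1, the cytochrome c1 gene, by -0.01 ± 0.06 (not past the threshold) and 1.91 ± 0.07. The RM copies that rose were ATP1, a subunit of the ATP synthase, at 0.30 ± 0.06 and CYC3, which attaches heme to cytochrome c, at 0.70 ± 0.22. The call of CYC3 ended in DESeq2 (adjusted p = 0.206), without hybrid replicate 1 (0.0755) and without co-culture replicate 1 (0.165). The regulator HAP1 (YLR256W), which activates respiration genes when heme is present and is known to be disrupted by a transposon in the laboratory strain, had 319 and 334 CPM of RM reads in the hybrid and 291 and 267 in the co-culture. That difference was close to the threshold (0.23 ± 0.08, adjusted p = 0.0426) and ended with TMM or RLE scaling, in DESeq2 and without hybrid replicate 1, hybrid replicate 2 or co-culture replicate 2, where the adjusted p lay between 0.0598 and 0.325. The BY copy of HAP1 changed by -0.42 ± 0.06. For the next counts, 13.3% of all RM copies off chromosome XIII fell and 10.2% rose. Of 13 genes that respond to heme or oxygen, 4 RM copies fell and 1, HAP1, rose, with a median of -0.28. DESeq2 called 2 of these falls, and 2 fell without hybrid replicate 2 or with a mean of at least 50 reads. TIR1, a cell wall mannoprotein gene of low oxygen, fell from 213 and 209.8 to 60.8 and 65.9 CPM (-1.73 ± 0.11), and OLE1 (YGL055W), the fatty acid desaturase, fell from 1903 and 1717 to 1072 and 933 CPM (-0.86 ± 0.07). The BY copy of OLE1 rose by 1.59 on the log2 scale, so the copies differed by -2.45 ± 0.05 (adjusted p = 3.13e-105). The BY copy of TIR1 fell like its RM copy (-1.77 ± 0.13). Over the heme and oxygen list the BY median was -0.45, with 3 BY copies higher and 7 lower. RM stood above BY in 4 genes of that list and below it in 3, against 13.0% and 10.9% of all gene pairs. Of 12 genes of the citric acid cycle 3 fell and 1 rose, and the falls were IDH1, IDH2 and CIT1 at -0.67, -0.53 and -0.51, of which the call of CIT1 ended in DESeq2 (adjusted p = 0.0975).

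Some RM copies of sterol and iron genes fell. The share over all tested RM copies off chromosome XIII was 13.3% lower and 10.2% higher. Of 15 ergosterol genes off chromosome XIII, 5 RM copies fell and the others did not pass, with a median of -0.17 against 0.23 for BY. ERG20 (YJL167W), farnesyl pyrophosphate synthase, went from 1839 and 1748 to 1220.3 and 1051 CPM (-0.66 ± 0.07), and ERG25, a sterol methyl oxidase, from 2140.5 and 2002 to 1406 and 1419 CPM (-0.55 ± 0.06). RM stood below BY in 12 of the 15 and above it in 1, against 10.9% and 13.0% of all gene pairs. Of 14 iron uptake genes off chromosome XIII, 7 RM copies fell and the others did not pass, with a median of -0.38 against 0.08 for BY, with 3 BY copies higher and 1 lower. DESeq2 called 7 RM falls. FRE2 (YKL220C), a metalloreductase, went from 172 and 171 CPM in the co-culture to 50.9 and 51.2 in the hybrid (-1.75 ± 0.13), and ARN1 (YHL040C), a siderophore transporter, from 364 and 367 to 184 and 159 CPM (-1.11 ± 0.09). HMX1 (YLR205C), the heme oxygenase, went from 126 and 158 to 68.5 and 64.0 CPM (-1.11 ± 0.14). The RM values of the hybrid were all below those of the co-culture in these genes, while the BY copies of FRE2 and ARN1 changed by 0.02 ± 0.19 and 0.04 ± 0.10. HMX1 rose in BY (1.96 ± 0.21), and its copies differed by -3.08 ± 0.23 (adjusted p = 1.58e-27). RM stood below BY in 7 of the 14, against 10.9% of all gene pairs.

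Genes for making ribosomes rose by small amounts. The counts are to be read against the 10.2% of all RM copies off chromosome XIII that rose and the 13.3% that fell. Of 60 ribosome biogenesis genes off chromosome XIII, 36 RM copies rose and the others did not pass, with a median of 0.33, and the BY copies had a median of 0.43. DESeq2 called 16 of the rises. EBP2 (YKL172W), a nucleolar factor of the large subunit, went from 376 and 339 to 592 and 522 CPM (0.64 ± 0.08, adjusted p = 8.40e-07). NOP16 and NOP4, other nucleolar factors, rose by 0.72 and 0.59. Each of these changes was larger than the spread between replicates, and none of the 60 exceeded a log2 change of 0.72. RM stood below BY in 12 genes and above it in 1, against 10.9% and 13.0% of all gene pairs off chromosome XIII. Of 18 genes of RNA polymerases I and III 6 rose and 2 fell (median 0.18), and DESeq2 called 3 rises and 0 falls (1 at an unadjusted p under 0.05). RPC53, a subunit of RNA polymerase III, rose from 164 and 163 to 263 and 240.3 CPM (0.62 ± 0.09). Of 37 RM copies of mitochondrial ribosomal proteins 4 rose, near the share of 10.2% over all RM copies off chromosome XIII, and 1 fell. Their median was 0.10, against 0.47 for BY, and DESeq2 called 0 of them (2 at an unadjusted p under 0.05). The rises were 7 with chromosome XIII left out of the totals, and 1 or 2 with any 1 library left out.

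Cytosolic ribosomal protein genes went both ways. The shares over all tested RM copies off chromosome XIII were 10.2% higher and 13.3% lower. Of 62 off chromosome XIII, 19 RM copies rose and 16 fell (median 0.11). Of the 62, 42 have a near-identical copy elsewhere in the genome, whose reads the counting could have split wrongly, and their values are uncertain. Only 8 of the rises and falls together were in genes without such a copy. RPS16B rose from 18.4 and 25.8 to 42.4 and 66.4 CPM (1.32 ± 0.24) and RPS7A from 18.4 and 17.6 to 34.6 and 47.4 CPM (1.22 ± 0.24), and both have such a partner. RPL37A, with 1812 and 1678 CPM in the co-culture and 1319.9 and 1256 in the hybrid, fell by 0.44 and has none. DESeq2 called 9 rises and 4 falls, and with chromosome XIII left out of the totals 22 rose and 7 fell. There were 10 rises and 10 falls without hybrid replicate 2, and 10 falls without hybrid replicate 1.

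Stress, protein breakdown and phosphate genes held rises and falls in RM. Over all RM copies off chromosome XIII 10.2% rose and 13.3% fell. Of 18 heat shock and chaperone genes 3 RM copies rose and 4 fell (median -0.06, against -0.62 for BY). HSP26 (YBR072W), a small chaperone, went from 63.3 and 63.0 to 15.5 and 22.3 CPM (-1.69 ± 0.21), HSP30, a membrane stress protein gene, changed by -2.10 ± 0.28 and HSP12, a membrane-stabilising one, by -2.25 ± 0.29. The risers were STI1, a co-chaperone of Hsp90 (1292 and 1307 to 1959 and 1886 CPM, 0.56 ± 0.06), MDJ1 and HSP78. Over all gene pairs off chromosome XIII RM stood above BY in 13.0% and below it in 10.9%. Among the 19 heat shock and chaperone pairs tested for the difference, it stood above in 12 and below in 2. HSP104, the disaggregase, is an example: its RM change of 0.04 ± 0.09 did not pass, and its BY copy changed by -1.04 ± 0.07 (adjusted p of the difference = 2.75e-20). Of 15 trehalose, glycogen and stress genes 3 fell in RM and the others did not pass, with a median of -0.26, and DESeq2 called 0 (3 at an unadjusted p under 0.05). RM stood above BY in 4 of 16 of these genes, against 13.0% of all gene pairs off chromosome XIII.

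Of 23 proteasome genes 7 RM copies rose and 1 fell (median 0.15, against -0.13 for BY), and DESeq2 called 1 rise. The rises were 1 without hybrid replicate 2 and 4 without co-culture replicate 1. PRE7 (YBL041W), a core subunit, went from 216 and 196 to 276 and 268 CPM (0.41 ± 0.09), while its BY copy changed by -0.35 ± 0.06. RM stood above BY in 11 of the 23, against 13.0% of all gene pairs off chromosome XIII. Of 10 phosphate genes 2 rose and 1 fell in RM, with a median of 0.14 against -0.41 for BY. DESeq2 called 1 rise and 0 falls (0 at an unadjusted p under 0.05), and 4 rose with chromosome XIII left out of the totals. VTC3 (YPL019C), of the polyphosphate synthesis complex, rose from 622 and 563 to 823 and 772 CPM (0.43 ± 0.07), and its BY copy changed by -0.89 ± 0.06 (adjusted p of the difference = 2.00e-53). RM stood above BY in 6 of the 10.

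Other lists held falls or single changes, to be read against the 13.3% of all RM copies off chromosome XIII that fell and the 10.2% that rose. Of 8 glycolysis and fermentation genes 4 RM copies fell, among them GPD1, glycerol phosphate dehydrogenase, from 144 and 142 to 68.5 and 72.5 CPM (-1.01 ± 0.12), and DESeq2 called 2. The count was 1 without hybrid replicate 2, and 2 without co-culture replicate 1. Of 11 cell cycle genes 4 fell, among them CLN2, a G1 cyclin, from 233 and 266 to 121 and 135 CPM (-0.95 ± 0.10), and DESeq2 called 1. Without hybrid replicate 2 or co-culture replicate 2 the count was 2. Of 5 histone genes 3 fell, HHF1 by 0.50, but HHF1 and HTA2 have near-identical copies. ZRT1, the high-affinity zinc transporter, was the 1 of 8 zinc and copper genes that rose, from 264 and 259 to 542 and 522 CPM (1.02 ± 0.08), and CTR3, a copper transporter, was the 1 that fell, a call that DESeq2 did not make. ATO3, a transporter of ammonia, was the 1 of 7 genes of gluconeogenesis and the glyoxylate cycle that passed (0.69 ± 0.15). In hexose transport (4 tested) and galactose use (4 tested) 0 passed in edgeR or DESeq2, also at an unadjusted p under 0.05. FLO8, the activator of flocculation genes, did not pass (-0.43 ± 0.22, adjusted p = 0.152).

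**Figure D3:**
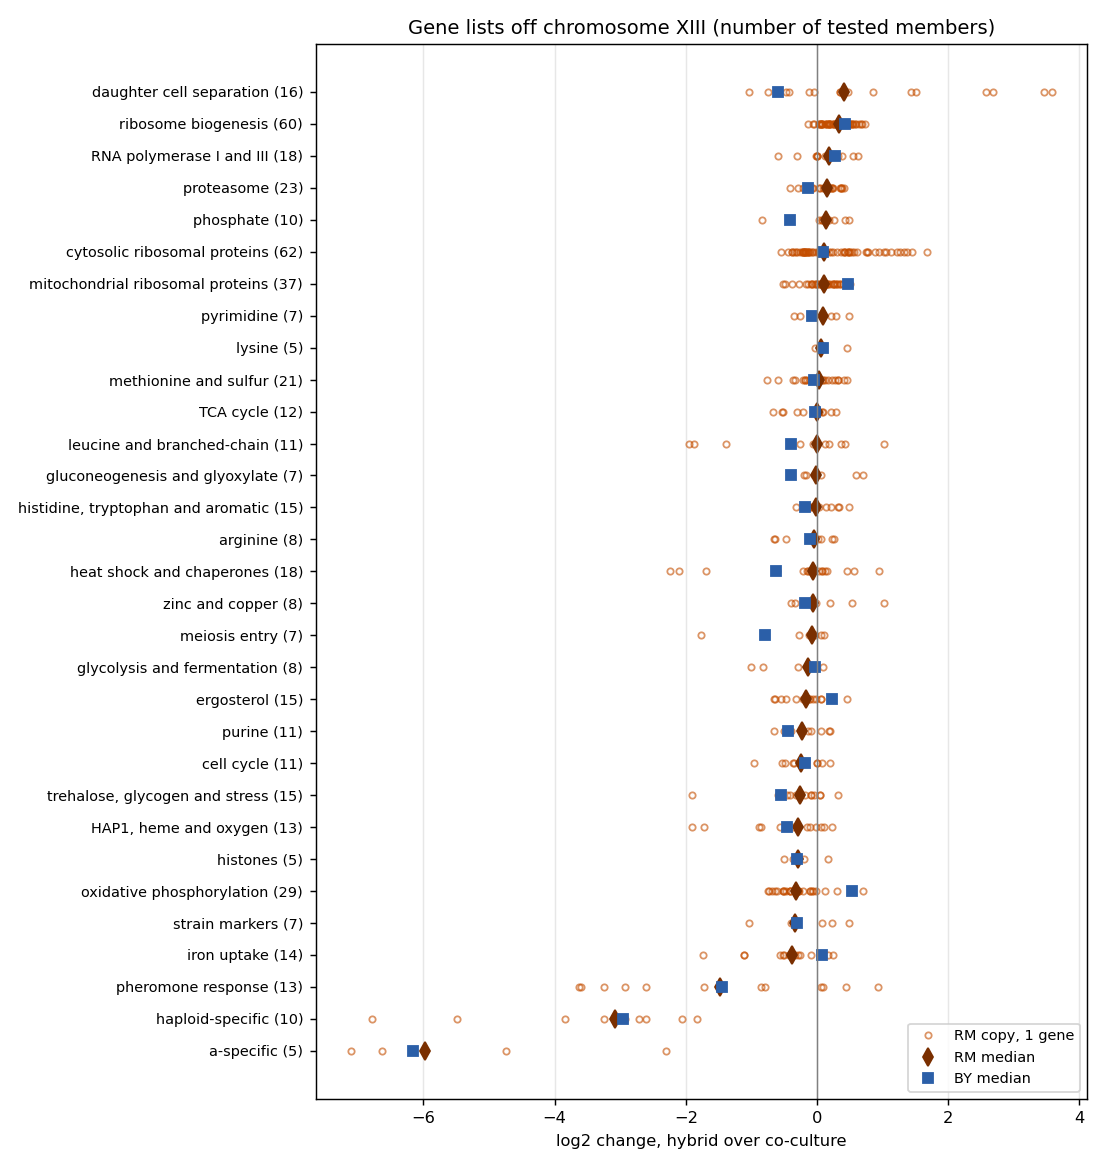
Log2 change, hybrid over co-culture (horizontal axis), of RM copies in lists with at least 5 tested members off chromosome XIII, 1 open orange circle for each gene, without the copies that had 0 reads in the hybrid. Dark diamonds are the medians of RM copies and blue squares those of BY copies of the same lists; RM and BY medians lie close together for mating genes, and on opposite sides of 0 for, among others, daughter cell separation, proteasome, phosphate, oxidative phosphorylation, ergosterol and iron uptake.

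Genes outside the lists were also among the largest changes. QDR2, a multidrug transporter, rose in RM from 53.7 and 62.4 to 166 and 174 CPM (1.55 ± 0.13), while its BY copy changed by -1.18 ± 0.08. MIG3, a transcriptional repressor, rose from 52.3 and 30.2 to 88.3 and 85.3 CPM (1.09 ± 0.18), and its co-culture values were far apart. YHR033W went from 17.7 and 22.7 CPM to 3.53 and 1.42, near the floor (-3.12 ± 0.46), and its BY copy rose by 0.76 on the log2 scale. NDJ1, a meiotic telomere protein gene, had too few RM reads to be tested alone (2.12 and 3.79 CPM in the hybrid and 4.42 and 6.93 in the co-culture), but its BY copy changed by -4.23 ± 0.17 and the copies differed by 3.36 ± 0.68 (adjusted p = 1.78e-05, and 0.0829 without hybrid replicate 2).

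LYS2 (YBR115C), an enzyme of lysine synthesis, lost its RM reads altogether. It had 543 and 556 CPM in the co-culture libraries and 0 reads in both hybrid libraries, where 2224 reads came from the BY copy. Against 3 reads over the hybrid group the RM copy was at least 646-fold lower, and its share of the 2224 LYS2 reads of the hybrid could be at most 0.135%. The BY copy of LYS2 changed by 0.10 ± 0.06 (adjusted p = 0.233). The RM parents named in the labels differ, and their part in this result was not tested. The other lysine genes held no such loss: of 5 tested, LYS9 rose (0.46 ± 0.10, adjusted p = 0.0596 in DESeq2), LYS2 fell and 3 did not pass. MET17, deleted in BY4741, had 1 BY read of 1041 in all 4 libraries together. Its RM copy changed by -0.34 ± 0.11 (adjusted p = 0.0232), a call that ended without hybrid replicate 1 (0.269), without co-culture replicate 2 (0.129) with chromosome XIII left out of the totals (0.0578) and in DESeq2 (0.222), and it overlaps YLR302C, which makes its reads uncertain.

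Chromosome XIII behaved as 1 block. Of 336 RM copies tested on it, 214 (63.7%) were higher in the hybrid and 6 (1.79%) lower, and 314 of 336 had a log2 change above 0. The median was 0.51, and the middle 80% lay between 0.13 and 0.89. In the other 15 chromosomes the medians of RM copies ranged from -0.03 to 0.06. Chromosome XIII took 11.7% and 11.6% of RM reads in the hybrid libraries, and 8.51% and 8.37% in the co-culture libraries. The hybrid and co-culture values of this share did not overlap. BY reads on the same chromosome took 8.26% and 8.18% in the hybrid and 7.96% and 7.81% in the co-culture, so the difference was small there. The BY copies of chromosome XIII had a median change of -0.05, with 58 (17.4%) higher and 59 (17.7%) lower of 333. Off chromosome XIII 605 BY copies (15.6%) were higher and 901 (23.2%) lower, and the medians of the 15 chromosomes ranged from -0.22 to -0.02. With TMM scaling the BY split was 756 higher and 706 lower.

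**Figure D4:**
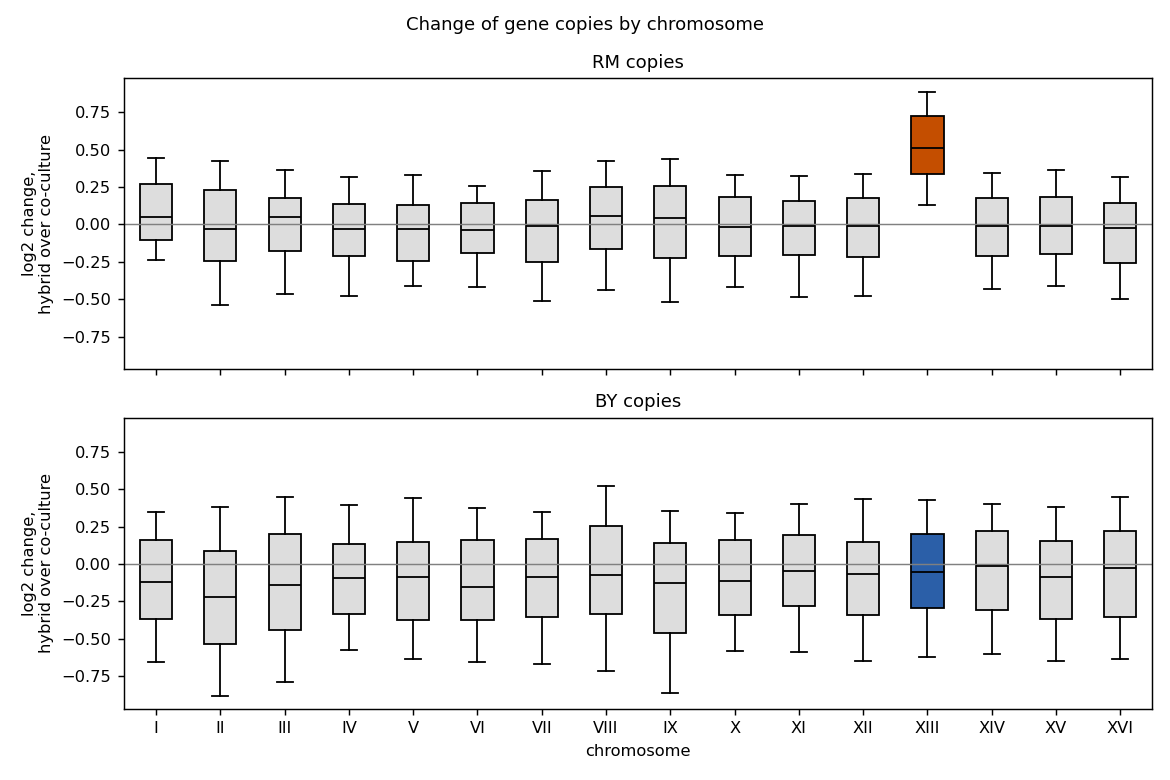
Log2 change, hybrid over co-culture, of RM copies (upper panel) and BY copies (lower panel) on each of the 16 chromosomes; boxes span the quartiles with the median as a line, and whiskers span the 10th to the 90th percentile. RM copies of chromosome XIII (orange) have a median of 0.51, against -0.03 to 0.06 on the others, and BY copies of chromosome XIII (blue) have a median of -0.05, within the range of the others.

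The rise ran along the whole chromosome. Of the tested copies with a position in the annotation, the 102 named YML, on the left arm, had a median of 0.52, with 81 higher and the others not past the threshold. The 228 named YMR, on the right arm, had a median of 0.50, with 132 higher and 6 lower. Cut into 3 stretches of equal gene number from the left end, the medians were 0.51, 0.52 and 0.48. Each hybrid library alone, set against the co-culture, gave medians of 0.50 and 0.55, so the block was about as high in each library. On the RM minus BY scale the chromosome had a median of 0.58, with RM above BY in 203 (60.1%) and below it in 8 (2.37%) of 338 gene pairs, against a median of 0.06 on the others. The cause of the block was not tested.

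**Figure D5:**
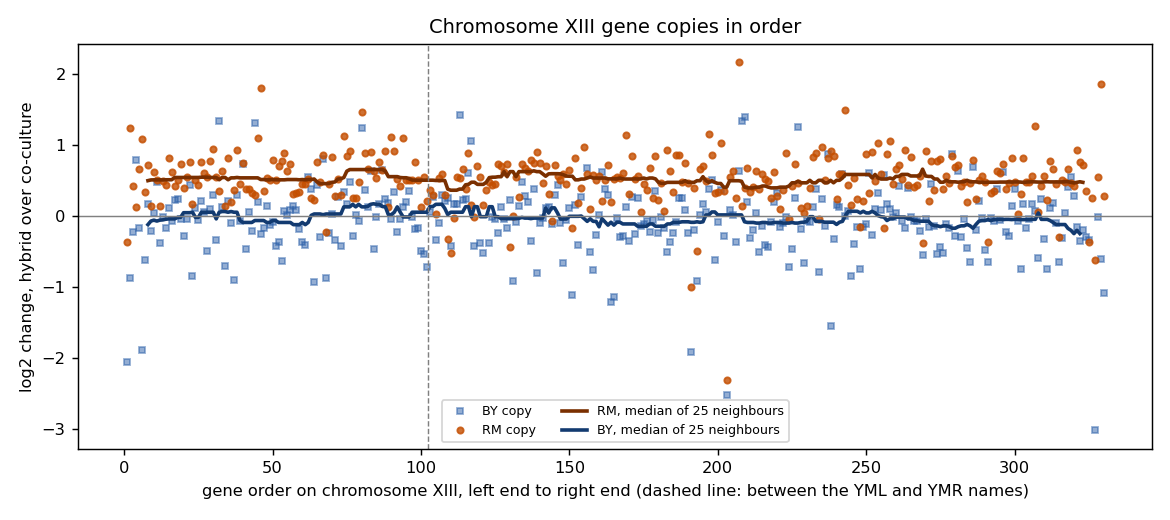
Log2 change, hybrid over co-culture, of RM copies (orange circles) and BY copies (blue squares) on chromosome XIII in the order of their genes from the left end to the right end, with the median of 25 neighbouring genes as a line (drawn where at least 20 of them were tested). The orange line stays near 0.5 over both arms and the blue line near 0, and single RM copies such as GAT2 lie below.

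Against this block single genes can be read by their distance from 0.51. Over the whole chromosome 63.7% of the tested RM copies were called higher. Among lists represented on it, 6 of 6 ribosome biogenesis copies rose, with a median of 0.76, and 4 of 5 ergosterol copies, with 0.33. Of 4 mitochondrial ribosomal protein copies 3 rose, with a median of 0.55, and of 3 oxidative phosphorylation copies 1 rose, with 0.40. FET4 (YMR319C), a low-affinity iron and copper transporter, rose most among copies without a near-identical partner, from 47.1 and 47.3 to 178 and 167 CPM (1.86 ± 0.13, adjusted p = 2.34e-11), while its BY copy changed by -0.60 ± 0.07. PHO84 (YML123C), the high-affinity phosphate transporter, went from 899 and 866 to 2153 and 2017 CPM (1.24 ± 0.06), and its BY copy changed by -0.87 ± 0.06; it overlaps the noncoding RNA gene YNCM0001W. GCV2 (YMR189W), of the glycine cleavage system, went from 77.3 and 75.0 to 133 and 153 CPM (0.92 ± 0.13), and its BY copy changed by -1.55 ± 0.11. The RM rises of FET4, PHO84 and GCV2 exceeded the BY changes by 2.47 ± 0.14, 2.11 ± 0.05 and 2.47 ± 0.15, more than the chromosome median of 0.58. ECM16 (YMR128W), a helicase of ribosome assembly, rose from 73.6 and 76.9 to 169.6 and 165 CPM (1.15 ± 0.12). RPS16A and RPL36A had larger changes (2.16 and 1.49) but near-identical partners.

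The 6 RM copies that fell on chromosome XIII were GAT2, ADE17, PLB1, NCW1, SCW10 and DIA1. GAT2 (YMR136W), a transcription factor gene, went from 74.3 and 77.5 CPM in the co-culture to 13.4 and 16.6 in the hybrid (-2.31 ± 0.21, adjusted p = 2.76e-09), and its BY copy fell about as much (-2.53 ± 0.20). ADE17 went from 372 and 308 to 159.7 and 178 CPM (-0.99 ± 0.10) and its BY copy changed by -1.91 ± 0.09. PLB1, a phospholipase, and NCW1, a cell wall gene, changed by -0.52 ± 0.08 and -0.49 ± 0.07. A lack of overlap between hybrid and co-culture values was a condition for naming these 4 genes, and 290 of the 336 tested RM copies of the chromosome met it. The 8 gene pairs with RM below BY despite the block were HMG1, RPM2, NDI1, HXT2, ERG5, FDO1, NDE1 and ERG2, named after their values were seen. HMG1, HMG-CoA reductase, ERG5 and ERG2 make sterols, and NDI1 and NDE1 are NADH dehydrogenases of mitochondria. HMG1 rose by 0.30 in RM and 1.31 in BY, and NDE1 by 0.40 and 1.39.

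Over all chromosomes apart from XIII, the change of RM copies differed from that of BY copies in 940 of 3931 gene pairs (23.9%). RM stood above BY in 511 (13.0%) and below it in 429 (10.9%), and the median difference was 0.06. This balance depends on the scaling. With TMM 368 were above and 588 below, with RLE 362 and 629, and with chromosome XIII left out of the totals 649 and 370. The counts also fell when 1 library was left out, to between 208 and 330 above and 244 and 328 below, and DESeq2 called 92 above and 143 below. Among pairs that averaged 50 reads or more over the 8 columns, with no overlap between groups and no overlapping gene, the widest gaps were those of DSE1, DSE2, CTS1, SCW11 and NDJ1 on the upper side and YHR033W, CYC1, HMX1, OLE1 and the lost LYS2 copy on the lower side.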

How the data were processed

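Messenger RNA was selected by polyA from 4 libraries (2 hybrid, 2 co-culture) and, per the labels' protocols, each product was split for PCR with Illumina or KAPA reagents; a library number is not tied to a culture or a PCR reagent. Per the submitters' processing notes CASAVA 1.8.2 and Bowtie were used; their settings, the genome build and the SNP set are not given in the sources used. The deposited values are the authors' raw read counts on SNP sites, whole numbers, with BY and RM reads of 4442 gene pairs in separate columns, per the file headers. Reads were counted without a stated strand.

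Names were matched to the R64 annotation (RefSeq): 4325 matched, 117 did not and are printed by systematic name only, 89 overlap another gene, and 57 have a near-identical copy (at least 90% identity over 100 bases). Each RM column was scaled by its own total. Columns were compared by the two-sided quasi-likelihood test of edgeR 4.0.16 (R 4.3.3), after filterByExpr with a minimum count of 10. The fit had 2 residual degrees of freedom, and p-values were adjusted by Benjamini-Hochberg over every gene tested, with a threshold of 0.05. BY columns were fitted the same way. Whether the change of the RM copy differed from that of the BY copy was tested as the interaction of allele and group over 8 columns with library as a block. Floors stand for 3 reads and hold counting error alone. The scripts were tested on simulated data.

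The members and gene lists were chosen with earlier results of these data known. Named genes were the 10 largest rises and falls off chromosome XIII and the 4 largest on it among genes past the threshold with a mean of at least 50 reads, no overlap between groups and no overlapping gene, the 5 largest differences between copies each way, and, from each list, at most the 5 members of smallest p (all members of the marker and mating type lists). Others named were chosen after their values were seen. Alternatives were TMM and RLE scaling, totals without chromosome XIII, totals of both alleles, DESeq2 1.42.0, no filter, a minimum mean of 50 reads, a minimum log2 change of 0.32, a replicate block, a fit without the library block, and each library left out in turn. Replicates of a group differed by more than sampling noise (chi-square over degrees of freedom 1.99 for hybrid and 2.06 for co-culture libraries), so they were kept as separate libraries.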

Additional observations from a re-analysis of the deposited data

Results flagged for a closer look

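The change of the RM copy differed from that of the BY copy, by the test of the difference itself (edgeR's quasi-likelihood test of the interaction), in a group of results that stand out. Off chromosome XIII the RM change was above the BY change in 511 gene pairs and below it in 429. On chromosome XIII it was above in 203 and below in 8.

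Among single genes, the RM change was above the BY change by 4.74 on the log2 scale for DSE2, by 5.28 for DSE1, by 4.27 for CTS1 and by 3.38 for SCW11, which are genes of daughter cell separation, and by 3.36 for NDJ1, a meiotic gene with few RM reads. The difference was -3.87 for YHR033W, -3.24 for CYC1, the cytochrome c gene, -3.08 for HMX1, the heme oxygenase gene, and -2.45 for OLE1, the fatty acid desaturase gene. The RM copy of LYS2 was at least 646-fold lower in the hybrid, and its BY copy did not pass the test.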

How the results depend on the processing

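Counts over all genes on or off chromosome XIII stayed within 1.5 times of the reported ones under the alternatives, except those given here for DESeq2 and for libraries left out. Counts over single gene lists are small and moved more: of 50 counts above 0, 35 moved by over 1.5 times under at least 1 alternative, 31 of them in DESeq2, 6 with chromosome XIII left out of the totals and 12 to 16 with 1 library left out. DESeq2 called fewer RM copies off chromosome XIII, 132 higher and 235 lower against 391 and 513, and fewer differences between copies, with RM above BY in 92 and below it in 143 off chromosome XIII and above it in 57 on it (454 gene pairs off chromosome XIII had no adjusted p there). Leaving out 1 library in turn gave 208 to 330 gene pairs with RM above BY and 244 to 328 with RM below BY off chromosome XIII, and 104 to 166 above and 7 to 8 below on it. In these fits the lone library of a group is assumed to vary like the others. The same fits gave 270 to 325 RM copies higher and 391 to 473 lower off chromosome XIII, and 176 to 196 higher and 5 to 6 lower on it. Of 93 RM changes printed with a value and past the threshold, 86 kept their call under all alternatives run, and DESeq2 ended 7. Of 24 printed differences between copies 20 kept theirs. Genes named without a value are not in these counts, among them CTR3, BAP3, ILV5 and ILV6, and DESeq2 did not make all of their calls.

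Signs of changes that did not pass the test reversed in 2 of the genes named: with chromosome XIII left out of the totals CYT1 moved to 0.042. With 1 library left out in turn, CYT1 ranged from -0.0489 to 0.0326 and HSP104 from -0.0138 to 0.0909.

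The replicate numbers of the labels were not shown to pair the libraries: with 2 pairs the deviations correlated at 0.22 over 3295 genes. With the number as a replicate block 560 RM copies were higher and 689 lower off chromosome XIII, and 230 and 7 on it. For the difference between copies the replicate block gave 523 above and 436 below off chromosome XIII. Over single lists it gave 9 ergosterol falls against 5 and 6 falls of trehalose, glycogen and stress genes against 3.

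With a median of 103 to 164 RM reads per copy in a library, small changes could be missed in copies at or below that depth. Copies with many more reads could pass with a small change, such as SAM1 at 0.23. Too few reads to be tested were found for 239 copies off chromosome XIII and 15 on it.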
